A study of Homo sapiens with 6 samples.

Results

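The genes described here are the ligands and receptors of the epidermal growth factor (EGF) family: the ligands HBEGF, AREG, EREG, EGF, TGFA, NRG1 and BTC, and the receptors EGFR, ERBB2 and ERBB3. They were studied in IMR90, human fibroblasts from lung, in 3 control samples left untreated and 3 samples that received recombinant human oncostatin M once, at 10 ng/mL. Oncostatin M is a secreted cytokine related to interleukin-6. Total RNA of each sample was hybridised to 1 Affymetrix array, and the authors deposited log2 expression values. The comparison asks how treatment altered the amounts of these transcripts. All groups are this 1 line without genetic change, as far as the labels say, and neither the length of treatment nor whether replicates were separate cultures is given in the sources used here. The p-values therefore rest on the spread between these arrays alone, and that spread may be technical.

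A gene was taken as measured when a probe set carried its symbol and no other in the platform's gene table, and where a gene had several, its probe set was chosen by the mean of its log2 values over all 6 arrays, the highest being kept. By this rule 9 of the 10 genes were measured, of 18417 genes in all, and AREG was not analysed here. That mean chose 1 of 2 probe sets for NRG1, and the other genes had 1 each. The family was picked with the fall of HBEGF already known.

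EGF family ligands are made as membrane-anchored precursors, and proteases of the ADAM group cut them free. They bind receptor tyrosine kinases of the ERBB family, which pair with one another and signal through RAS, RAF and ERK and through phosphoinositide 3-kinase. Of the ligands measured here, EGFR binds HBEGF, EREG, EGF, TGFA and BTC, while the neuregulin NRG1 binds ERBB3. ERBB2 has no known ligand of its own and acts as a partner, and ERBB3 has little kinase activity and also depends on a partner. In lung, fibroblasts and epithelium both use these ligands in growth and repair.

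HBEGF, which encodes heparin-binding EGF-like growth factor, was the 1 measured member that passed the test: it was 2.86-fold lower after oncostatin M. The other 5 measured ligands and the 3 receptors did not pass the test at an adjusted p under 0.05 (limma, adjusted over the 18417 genes). NRG1 lay higher and EGFR lower on every treated array than on any control array, without passing. Thus 1 of 9 members was called, against 3.42% of all genes tested, 1.72% higher and 1.70% lower. The groups did not overlap for 3 of 9 members, 1 higher and 2 lower, against 18.0% of all genes, 7.43% higher and 10.6% lower. The median change of the 9 members was 0.04 on the log2 scale and that of all genes 0.00057.

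The upstream sequences of HBEGF and EREG are shown because both ligands were expressed above the level of silent genes and 1 of them fell while the other had almost the same mean in both groups. Each is the 250 bases before the gene's start as RefSeq gives it (GRCh38.p14), 5′ to 3′ on the strand of the gene, at chr5:140346604-140346853 on the minus strand for HBEGF and at chr4:74364895-74365144 on the plus strand for EREG. Capitals mark a match to any of the 5 motifs described after them.
HBEGF: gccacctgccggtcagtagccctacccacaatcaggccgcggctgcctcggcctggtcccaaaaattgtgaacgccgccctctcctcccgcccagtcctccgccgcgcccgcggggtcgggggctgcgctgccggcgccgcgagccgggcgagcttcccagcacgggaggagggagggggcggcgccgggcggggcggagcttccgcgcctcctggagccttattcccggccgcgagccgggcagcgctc
EREG: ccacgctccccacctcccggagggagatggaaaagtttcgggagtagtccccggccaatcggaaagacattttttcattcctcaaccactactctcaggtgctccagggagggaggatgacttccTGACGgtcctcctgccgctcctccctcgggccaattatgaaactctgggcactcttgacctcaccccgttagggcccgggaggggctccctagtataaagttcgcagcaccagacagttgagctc

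Both strands of these windows were searched for TTCNNNGAA (the STAT motif), TGANTCA (AP-1), TGACG (CRE core), CCGGAAG (ETS) and GCGTGGGCG (EGR). Among 35116 RefSeq windows of the same length, 6.57% held the STAT motif, 6.57% the AP-1 motif, 21.2% the CRE core, 8.52% the ETS motif and 0.72% the EGR motif. The HBEGF window held none of the 5, and the EREG window held 1, a CRE core at positions -125 to -121 relative to the start. That says only that these letters are or are not in this window. HBEGF's window was rich in G and C (76.4%, at percentile 92.5 of all windows), and that of EREG was at 58% (percentile 50). Of the 8 listed genes with a window (none was found for NRG1 and ERBB3), none held the STAT motif, 3 held AP-1 (EGF, EGFR and ERBB2), 3 the CRE core (AREG, EREG and TGFA) and 1 the ETS motif (ERBB2). These 8 genes had 10 windows, since EGFR and TGFA have 2 starts each, and a gene was counted when any window matched. The AP-1 matches of EGFR and the CRE core of TGFA each lay in 1 of the gene's 2 windows.

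The files hold no detection calls, so levels were compared with those of 429 genes for keratin-associated proteins or olfactory receptors, which fibroblasts are not expected to express. Their mean was 4.87 in control and 4.90 after oncostatin M, and 95% of them lay below 6.69 and 6.71. HBEGF, EREG, NRG1, EGFR and ERBB2 lay above these bounds in both groups. EGF, TGFA, BTC and ERBB3 lay below them in both groups, within the range of silent genes, where a level cannot be told from background and a change would be compressed. Levels of different genes come from different probes and have no order among themselves.

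**Figure D1:**
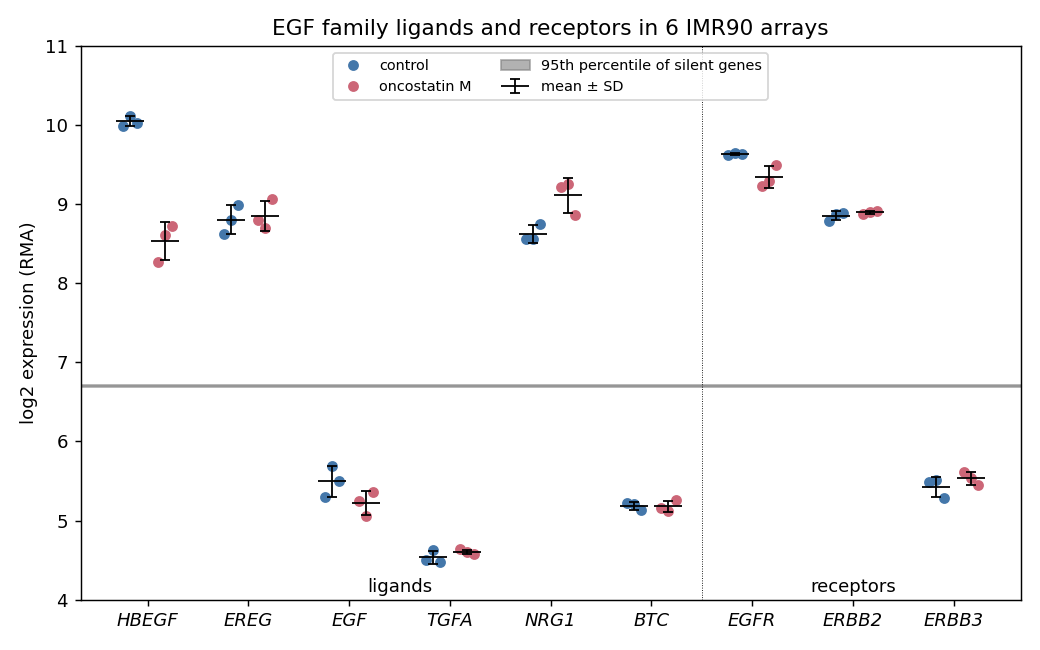
Log2 expression of the 9 measured genes on each array, with 3 control points (blue) and 3 oncostatin M points (red) per gene and their mean ± SD. HBEGF falls from near 10 to between 8.27 and 8.72, while 4 genes sit under the grey band that marks the 95th percentile of 429 silent genes.

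Among the ligands, HBEGF (probe set 8114572) stood at 9.99, 10.12 and 10.03 (log2 level) on control arrays 1 to 3. After oncostatin M it stood at 8.27, 8.61 and 8.72. The controls lay within 0.13 of one another, every treated array lay below all of them, and oncostatin M 1 was the lowest. The mean went from 10.05 ± 0.07 (SD, n = 3) to 8.53 ± 0.24 (SD, n = 3). The change was -1.52 on the log2 scale (SE 0.12, 95% interval -1.79 to -1.24, adjusted p = 0.000539, limma). In absolute size it ranked at place 28 of the 18417 genes. Both group means remained far above the bound of silent genes, at percentiles 99.8 and 98.8 of those genes. In RNA of whole cultures, fewer cells that express a gene and less RNA per cell cannot be told apart.

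NRG1, the neuregulin ligand, gave 8.56, 8.55 and 8.75 on the control arrays and 9.22, 9.26 and 8.86 after oncostatin M (probe set 8145766). All treated arrays lay above all controls, with oncostatin M 3 only 0.10 above control 3. The change was 0.49 (SE 0.12, 95% interval 0.22 to 0.76, adjusted p = 0.0774, limma), which did not pass. Without oncostatin M 3 it was 0.62 and passed (adjusted p = 0.0199, limma). In that fit 2 of 9 members were called, with 486 of 18417 genes called in all. The gene's other probe set, 8145736, gave 7.79, 7.88 and 7.93 in control and 8.26, 8.03 and 7.98 after oncostatin M. Those groups did not overlap either, but the change was smaller, at 0.22 (SE 0.10, adjusted p = 0.618 over 33297 probe sets, limma). The probe set used is paired with a single transcript record in the gene table and the other with many, so they need not report the same isoforms.

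EREG encodes epiregulin, a ligand of EGFR. Its levels were 8.63, 8.80 and 8.99 in control and 8.80, 8.70 and 9.06 after oncostatin M. The groups overlapped, and the spread within each group was larger than the distance of their means. The change was 0.05 (SE 0.12, 95% interval -0.23 to 0.33, adjusted p = 0.973, limma), and its sign turned when control 1 (-0.04) or oncostatin M 3 (-0.06) was left out. The fall seen in HBEGF lies outside the interval of EREG.

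The remaining ligands had levels within the range of silent genes. EGF, the founding ligand, gave 5.29, 5.69 and 5.50 in control and 5.24, 5.06 and 5.36 after oncostatin M. These groups overlapped, and the change was -0.27 (SE 0.12, 95% interval -0.55 to 0.00025, adjusted p = 0.43, limma). TGFA, which encodes transforming growth factor alpha, gave 4.50, 4.63 and 4.48, and then 4.63, 4.60 and 4.57, a change of 0.07 (SE 0.07). BTC, which encodes betacellulin, gave 5.22, 5.21 and 5.13, and then 5.16, 5.12 and 5.26, a change of -0.0055 (SE 0.07). In these 2 genes the groups overlapped too, and adjusted p was 0.899 and 0.994 (limma).

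Of the receptors, EGFR gave 9.63, 9.65 and 9.63 in control and 9.22, 9.30 and 9.49 after oncostatin M. The controls were nearly identical, the treated arrays spread more widely, and all of them lay lower. The mean went from 9.64 ± 0.01 to 9.34 ± 0.14 (SD, n = 3 each). The change was -0.30 (SE 0.09, 95% interval -0.49 to -0.10), 1.23-fold lower, and did not pass over all genes (adjusted p = 0.139, limma). It also did not pass in any of the 15 alternatives that refitted the model, with adjusted p from 0.0622 to 0.371 (limma).

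ERBB2, the partner receptor, gave 8.79, 8.88 and 8.89 in control and 8.88, 8.90 and 8.92 after oncostatin M. The groups overlapped within a narrow range, and the change was 0.04 (SE 0.07, 95% interval -0.11 to 0.20, adjusted p = 0.948, limma). ERBB3, the receptor of NRG1, gave 5.49, 5.51 and 5.28 in control and 5.61, 5.54 and 5.45 after oncostatin M, within the range of silent genes. Its change was 0.10 (SE 0.09, 95% interval -0.10 to 0.31, adjusted p = 0.832, limma), with overlapping groups. The interval of ERBB2 holds no change beyond 0.20 in either direction.

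**Figure D2:**
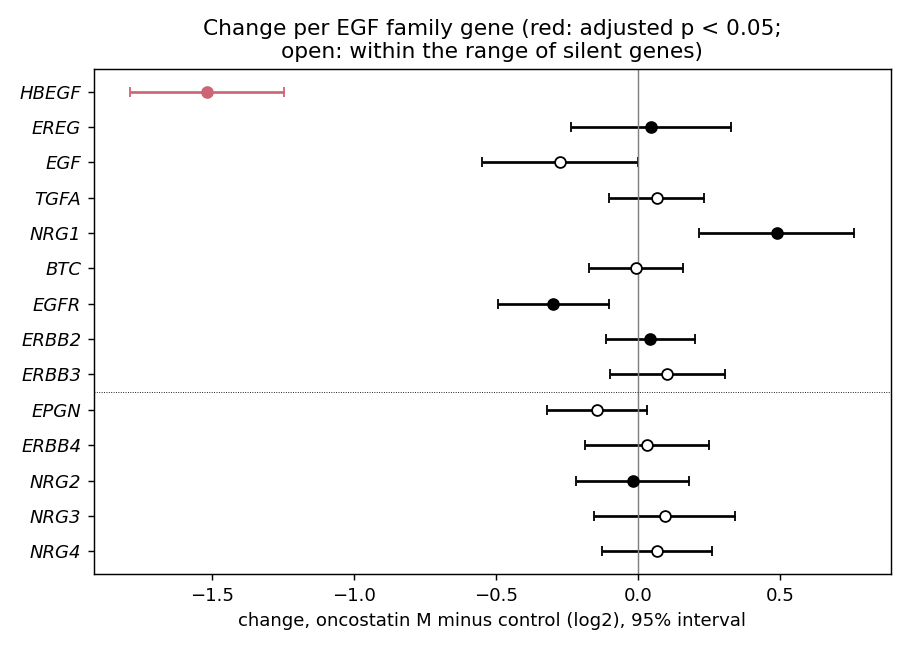
Change per gene, treated minus control in log2 units, with its 95% interval from the limma fit, for the 9 members above the dotted line and 5 further family genes under it. HBEGF, in red, lies at -1.52, the intervals of NRG1 and EGFR leave out 0 without passing the adjusted test, and open circles mark genes within the range of silent genes.

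The 5 family genes outside this set were also measured: the ligands EPGN, NRG2, NRG3 and NRG4 and the receptor ERBB4, which binds HBEGF and the neuregulins. None of them passed the test (limma; 0 of 5 also at an unadjusted p under 0.05; median change 0.03), and 4 of 5 lay within the range of silent genes. NRG2 lay above it in both groups. EPGN, which encodes epigen, had the largest difference at -0.14 (adjusted p = 0.596, limma), and NRG3 followed with 0.10 (adjusted p = 0.909). ERBB4 stood at 5.06 in control and 5.09 after oncostatin M.

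Genes that free the ligands from the membrane came next. Of 13 measured genes of ligand shedding, 2 were lower and none higher, against 1.70% and 1.72% of all genes, with a median of -0.07. TIMP3, an inhibitor of metalloproteases that include the sheddase ADAM17, fell by 0.68 (SE 0.07, adjusted p = 0.00154, limma), from 11.80 ± 0.05 to 11.12 ± 0.05 (SD, n = 3 each). ADAM19, a membrane protease that can cut neuregulin, fell by 0.66 (SE 0.12, adjusted p = 0.0206). Its call was lost without control 1 (0.129) or control 2, which left 1 gene called. ADAM17 itself differed by -0.07 (adjusted p = 0.963), and the sheddase ADAM10 differed by 0.29 (adjusted p = 0.0836). The other 9 genes of the list differed by -0.26 to 0.15, none past the test.

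Genes that attenuate the receptors went both ways. Of 13 measured, 2 were lower and 1 higher, against 1.70% and 1.72% of all genes, with a median of -0.08. ERRFI1, an inhibitor that binds EGFR and its relatives and is itself induced by growth factors, fell by 0.60 (SE 0.11, adjusted p = 0.0209, limma), from 10.75 ± 0.16 to 10.15 ± 0.14 (SD, n = 3 each). PTPRK, a receptor tyrosine phosphatase, fell by 0.38 (adjusted p = 0.0227), and PTPN1, a phosphatase of activated receptor kinases, rose by 0.34 (adjusted p = 0.0398). None of these 3 calls held without control 1, control 2 or oncostatin M 3, and 1 gene was called without control 3 or without oncostatin M 2. The calls of PTPRK and PTPN1 were also lost when arrays were centred on their medians. The adaptor and kinase genes between the receptors and ERK did not move beyond the test: of 17 measured genes of signal transduction none passed with limma (1 at an unadjusted p under 0.05; median -0.04), and 4 had groups that did not overlap, all of them lower, against 10.6% of all genes lower and 18.0% in either direction. The largest differences with all 6 arrays were those of PIK3CB (-0.28, adjusted p = 0.619, limma) and of the ERK kinase gene MAP2K1 (-0.22, adjusted p = 0.229). Without oncostatin M 1, PIK3CB differed by -0.088 and MAP2K1 by -0.20, so the place of PIK3CB rests on that array.

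Genes known to respond to ERK were lower more often than higher. Of 24 measured, 8 were lower and 1 higher, against 1.70% and 1.72% of all genes, and the median was -0.30. SPRY2 and SPRY4, which are induced by growth factor signalling and dampen it, fell, SPRY2 to a level 2.14-fold lower (adjusted p = 0.000363, limma) and SPRY4 by 0.67 on the log2 scale (SE 0.09, adjusted p = 0.00436). SPRY1, of the same family, rose by 0.96 (SE 0.12, adjusted p = 0.00416). SPHK1, a sphingosine kinase gene, fell by 0.88 (SE 0.12, adjusted p = 0.00614). Of the other 5 that fell, the AP-1 subunit gene FOSL1 differed by -0.60 (adjusted p = 0.0142), DUSP6, the ERK phosphatase, fell by 0.37 (adjusted p = 0.0255) and CCND1, cyclin D1, by 0.48 (adjusted p = 0.0138). EGR1 differed by 0.10 (adjusted p = 0.804), MYC by 0.12 (0.683) and FOS by 0.14 (0.772), while JUN differed by -0.23 (0.134) and IER2 by -0.32 (0.279), and none of these 5 immediate early genes passed. The 9 calls became 4 without control 1 or control 2 and 5 without control 3 or oncostatin M 2. The list was chosen with earlier results of these arrays known and is not independent evidence of its direction.

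**Figure D3:**
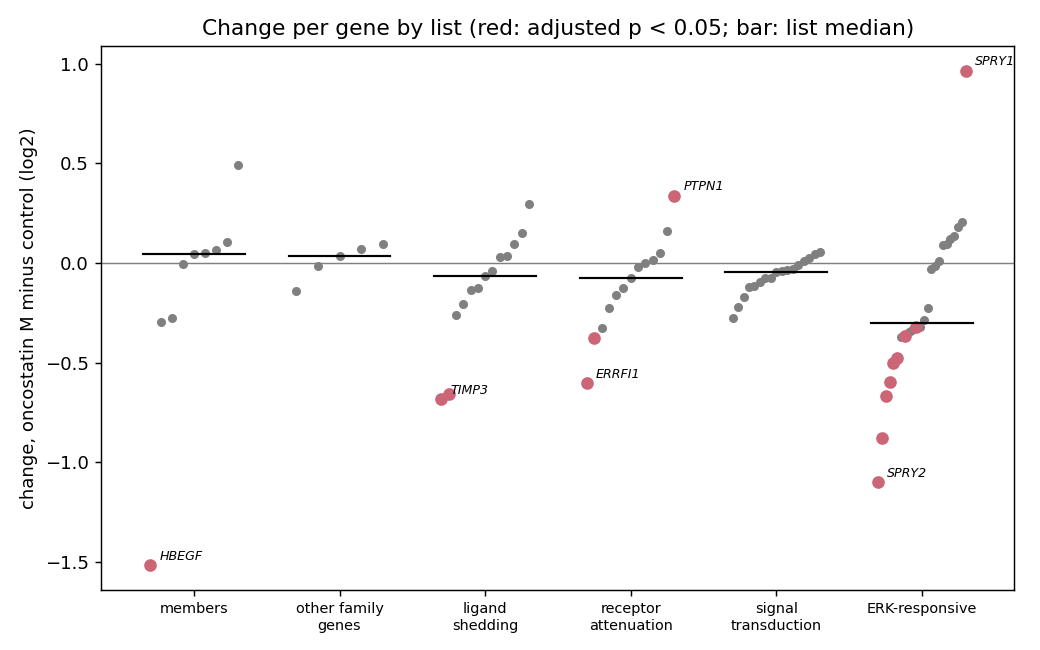
Change per gene, treated minus control in log2 units, for the 9 members and 5 lists of related genes, sorted within each list, with the list median as a bar. Red points passed an adjusted p under 0.05, and the ERK-responsive list has the lowest median (-0.30), with SPRY1 at 0.96 on the other side.

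The 5 genes whose pattern over the 6 arrays was most like that of HBEGF were SEMA3D, MARCHF4, SEMA7A, ARHGAP18 and EDN1. Likeness was the root mean square distance between the genes' log2 values after each gene's own mean was subtracted, and it ran from 0.13 for SEMA3D to 0.19 for EDN1. SEMA3D and SEMA7A are semaphorins, MARCHF4 is a membrane ubiquitin ligase, ARHGAP18 encodes a GTPase-activating protein, and EDN1 encodes the precursor of endothelin. SEMA3D went from 7.96 ± 0.14 to 6.49 ± 0.33, SEMA7A from 9.84 ± 0.12 to 8.41 ± 0.39 and ARHGAP18 from 9.77 ± 0.05 to 8.56 ± 0.20 (SD, n = 3 each). After oncostatin M, SEMA3D and EDN1 (mean 6.24) lay within the range of silent genes, so their treated levels cannot be told from background and the size of their change and their distance to HBEGF are uncertain. Like HBEGF, 4 of the 5 were lowest on oncostatin M 1, and EDN1 was lowest on oncostatin M 2 (5.99). Genes near to a pattern in which the groups differ also differ between the groups by that choice. The choice used all 6 arrays, so a shared lowest array also follows from it in part.

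**Figure D4:**
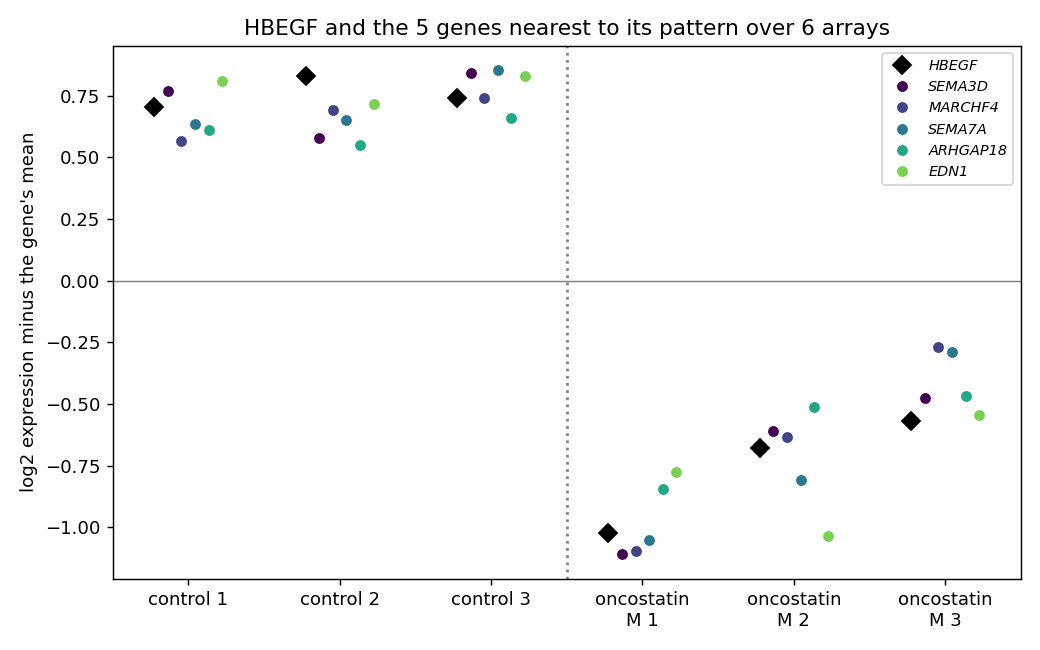
Log2 expression minus each gene's own mean on the 6 arrays, for HBEGF (diamonds) and the 5 nearest genes (circles). On oncostatin M 1 HBEGF, SEMA3D, MARCHF4 and SEMA7A lie lowest, and EDN1 lies lowest on oncostatin M 2.

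Array medians over all probe sets ran from 6.54 to 6.66, and arrays correlated at 0.987 to 0.998. Oncostatin M 1 differed most from its group, with a root mean square deviation of 0.169 against 0.0843 to 0.116 for the others. Without it HBEGF changed by -1.38 (SE 0.08, adjusted p = 6.68e-05, limma), EGFR by -0.24 and NRG1 by 0.43. Over the 6 fits that left out 1 array, HBEGF ran from -1.61 to -1.38 with adjusted p up to 0.0105. All 10 fibroblast markers lay above the range of silent genes in both groups, with control means from 9.95 to 13.22. After oncostatin M 2 of them were called higher (LUM by 0.75, PDGFRA by 0.39) and 1 lower (PDGFRB, -0.37). Of all genes, 1.72% were called higher and 1.70% lower. The median change of the 10 markers was 0.23. Of markers of other cells, 6 of 7 epithelial (KRT14 aside), 4 of 6 endothelial (CLDN5 and TEK aside) and 5 of 6 immune markers (NKG7 aside) lay within that range in both groups. None of these 19 passed the test with limma, and 1, TEK, had an unadjusted p under 0.05. TEK stood at 8.57 in control and 9.04 after oncostatin M, a difference of 0.47 (SE 0.15, adjusted p = 0.182, limma). The mean log2 level of the epithelial markers ran from 5.71 to 5.81 on control arrays and from 5.65 to 6.02 after oncostatin M, that of the endothelial markers from 6.08 to 6.20 and 6.15 to 6.43, and that of the immune markers from 4.75 to 4.83 and 4.75 to 4.98. On oncostatin M 1, all of these 19 markers but EPCAM and MS4A1 stood higher than on the other treated arrays. The median over all probe sets was also highest on that array, at 6.66 against 6.54 and 6.56 on oncostatin M 2 and 3, so higher values there were not particular to these markers. Whether cells of other types were present or had a part in the results was not tested.

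**Figure D5:**
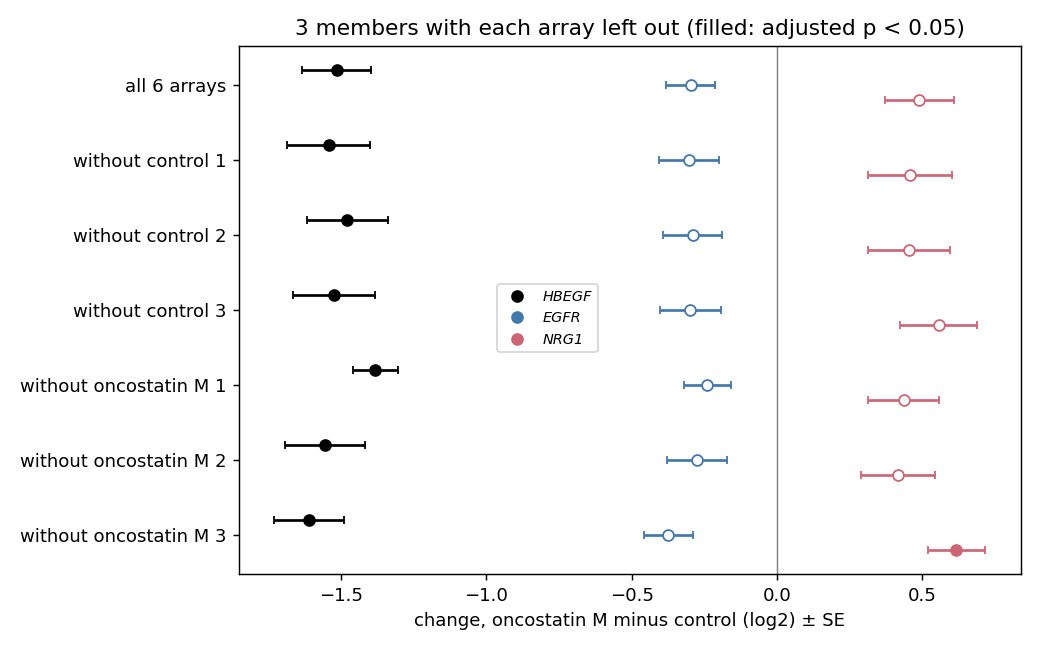
Change of HBEGF, EGFR and NRG1, treated minus control in log2 units ± SE, with all 6 arrays and with each array left out. HBEGF stays between -1.61 and -1.38 with every fit past an adjusted p of 0.05 (filled), EGFR passes in none, and NRG1 passes without oncostatin M 3.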

How the data were processed

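The values are log2 expression per probe set, and the authors computed them by RMA. Affymetrix Expression Console 1.1 is the program, and no settings are given (both per the submitters' processing notes). RNA was purified with RNeasy columns and labelled with the Ambion WT Expression Kit, per the labels' protocols. No genome build of the probe sets is given in the sources used here. RMA equalises the arrays' distributions and compresses differences of dim probe sets, and each change is thus measured relative to the rest of the array. Of 33297 probe sets, 19460 carried 1 gene symbol, 1754 several and 12083 none, and no symbol needed updating. The group was the single term of a linear model in limma 3.58.1 (R 4.3.3; lmFit, eBayes, two-sided, Benjamini-Hochberg), run on 18417 genes without a filter, and genes were called at an adjusted p under 0.05. With 3 arrays a group, precision is limited by their number. The fit was tested on simulated data, with 200 changed genes in each of 20 runs. It recovered 49.1% of changes of 0.5 on the log2 scale and 90.3% of changes of 1. The simulated noise was normal and independent between genes, with each gene's SD taken from these arrays. Fewer genes were changed than the 630 called here, so recovery on the real arrays may differ.

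From each list of related genes, up to 4 called genes with the largest change are named, or the 2 largest differences where none was called. FOSL1, DUSP6, CCND1, EGR1, MYC, FOS, JUN, IER2, ADAM10, ADAM17, NRG2, ERBB4, LUM, PDGFRA, PDGFRB and TEK were named after their values were seen. The genes nearest to a member were sought for members called with a change of at least 1. Members and lists were chosen with earlier results of these data known. Of the listed genes, 10 besides AREG were not analysed here. Promoter windows are RefSeq's (GRCh38.p14), and a search of the ligands' proteins was not made. Figures were drawn with matplotlib 3.10.9.

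The replicate numbers shared by the groups were checked as pairs: deviations from the group means correlated at 0.06, -0.46 and 0.51 for numbers 1 to 3, so the numbers were not taken to pair the samples. Alternatives were other normalizations, other ways to pick a probe set, exclusion of dim genes, another variance prior, weighted arrays, a replicate block, a threshold of 0.01 and each array left out in turn.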

Additional observations from a re-analysis of the deposited data

How the results depend on the processing

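HBEGF kept its fall and its call in all 15 alternatives (changes from -1.61 to -1.36, adjusted p up to 0.0105, limma). Array weights, estimated by limma at 0.226 for oncostatin M 1 and 3.22 for oncostatin M 3, gave 1277 called genes over all genes against 630, and the threshold of 0.01 gave 287. Members called were 2 of the 5 tested when only genes above the median level were kept, with 739 of 9208 genes called in all. With a trend and robust prior they were 2 of 9, with 864 of 18417 genes called in all. NRG1 was the addition in both (adjusted p = 0.0399 and 0.0379, limma). Ligand shedding had 4 called genes with quantile normalization again (706 over all genes), 4 with array weights and 1 at 0.01. Receptor attenuation had 1 called gene with arrays centred on their medians (499 over all genes), 1 with the replicate block (478) and 0 at 0.01. ERK-responsive genes had 4 at 0.01.

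With 1 array left out, called genes ran from 261 (without control 1) to 732 (without oncostatin M 1) over all genes, from 1 to 2 for the members, 1 to 3 for ligand shedding, 0 to 3 for receptor attenuation and 4 to 9 for ERK-responsive genes. Signs turned only for members and family genes with a difference near 0. BTC gave 0.024 with array weights and -0.044 to 0.024 with 1 array left out, NRG3 gave -0.0010 with array weights and -0.017 to 0.16 with 1 array left out, and EREG gave 0.20 with array weights and -0.057 to 0.14 with 1 array left out. The cause was not tested.

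The replicate block left 478 genes called, of which 445 were among the 630, and HBEGF at -1.52 (adjusted p = 0.00396). The shared numbers are no known pairing, and arrays did not all correlate best with their own number. Array intensity limits what can be read for EGF, TGFA, BTC and ERBB3, which lay within the range of silent genes.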

Other observations

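In the order of genes along RefSeq's GRCh38.p14 assembly, the 2 tested genes on each side of HBEGF did not pass the test: CYSTM1 differed by -0.04, PFDN1 by -0.13, SLC4A9 by -0.04 and SRA1 by -0.0022 (log2), with adjusted p from 0.701 to 0.997 (limma). The neighbours of EGFR included VOPP1, which differed by -0.31 (SE 0.09, adjusted p = 0.126), close in size to EGFR itself at -0.30, while LANCL2, which lies between them, differed by -0.03 (adjusted p = 0.968). EPGN, EREG and BTC follow one another among the tested genes, with AREG, which was not analysed here, lying between EREG and BTC, and none of these 3 passed the test. These neighbours were looked up after the members' values were seen.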
